A study of Mus musculus with 3 samples.

Results

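*Lhcgr* encodes the receptor for luteinizing hormone (LH) and its placental counterpart human chorionic gonadotropin (hCG). Its row was 1 of 24958 gene rows in the deposited single-cell table of mouse ovary. Its UMIs are described below by cell gate and by barcode ending. According to the labels, whole ovaries were taken at 0, 1 or 6 h of hCG (H0, H1 and H6), and each time point is 1 of the 3 libraries. For the ovaries it sequenced, the study describes juvenile Kunming mice primed with pregnant mare serum gonadotropin (PMSG), and it mentions no hCG for them. It used PMSG to start the FSH-dependent phase of follicle growth. No genotype or other treatment is given in the labels, and how many animals were pooled is not given in the sources used here. The cell barcodes end in 1, 2 or 3, and the labels do not tie an ending to a library, so the endings are called barcode sets 1, 2 and 3 and carry no time point. With 1 library per time point no test was possible, and each 95% interval below covers counting error only.

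The LH receptor is a G protein-coupled receptor that acts mainly through Gs, adenylyl cyclase and protein kinase A (PKA). Theca and interstitial cells carry it and answer LH with androgen synthesis, whereas granulosa cells (GCs) acquire it in the mural layer of large antral follicles under FSH, and the LH surge then starts ovulation and luteinization through those cells. After the surge the receptor mRNA is known to be lost for a time, in part through the mRNA-binding protein mevalonate kinase, encoded by *Mvk*.

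In GENCODE M21, on build GRCm38, *Lhcgr* spans 75510 bases of the minus strand at chr17:88716481-88791990, and no other annotated gene overlaps it. The coding transcript has 11 exons, and its last exon (chr17:88737274-88743137) holds the end of the coding sequence and a 3′ UTR of 4720 bases, the part of a gene that 3′ libraries mostly read. The 250 bases before the RefSeq start site (GRCm38.p6, chr17:88792015-88792264, minus strand) are shown because the pathway lists below include factors known to bind the motifs in capitals, which mark matches to a GC box (GGGCGG, the Sp1 and Sp3 motif) and to a nuclear receptor half-site (AGGTCA), each searched on both strands.

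Lhcgr promoter: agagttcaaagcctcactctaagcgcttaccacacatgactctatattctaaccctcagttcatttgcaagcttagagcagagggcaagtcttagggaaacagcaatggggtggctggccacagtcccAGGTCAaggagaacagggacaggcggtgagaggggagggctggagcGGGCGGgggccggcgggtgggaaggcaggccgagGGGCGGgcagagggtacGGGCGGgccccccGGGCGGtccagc

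The 4 GC boxes begin at positions -76, -42, -25 and -12 from the start site, and the half-site begins at -122; none overlaps another. Of 32851 promoters of this length, 32.7% held at least 1 GC box and 4.09% held 4 or more, while 14.0% held the half-site. No match was found to a cAMP response element (TGACGTCA, held by 1.55% of promoters) or its half-site (TGACG, 17.8%). The same was true of the motif of GATA factors (AGATAA, 9.99%), the AP-1 motif (TGANTCA, 6.75%) and the TATA box (TATAAA, 12.4%). These are matches of letters in 1 window and not binding sites.

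The table held 31776 cells and 240030587 UMIs, with 9917 to 11475 cells and a median of 6093 to 6524 UMIs per cell in each barcode set. Single cells were gated on marker genes that did not include *Lhcgr*, *Fshr*, *Cyp19a1* or *Star*. The granulosa gate required more UMIs of *Inha*, the inhibin alpha subunit, than of *Cyp11a1*, the side-chain cleavage enzyme that starts steroid synthesis, or neither gene with a higher granulosa score. The theca and interstitial gates required the opposite together with a higher steroidogenic score, and were divided at 5 UMIs per 10000 of *Cyp17a1*, the enzyme of androgen synthesis. The granulosa gate held 12960 cells, the theca gate 1554 and the interstitial gate 1824. *Inha* stood at 63.0, 59.3 and 35.8 UMIs per 10000 in the granulosa gate of sets 1, 2 and 3, and *Cyp17a1* at 59.1, 62.7 and 26.6 in the theca gate. *Insl3*, a theca hormone, was at 1.36, 0.534 and 0.206 in the theca gate and at 0.286, 0.0376 and 0.0529 in the interstitial gate.

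The name of the interstitial gate describes its rule more than its cells. Of the luteal markers listed, *Ptgfr*, *Sfrp4* and *Akr1c18* were higher in it than in the other gates compared in every set, while *Prlr* and *Parm1* were not. In set 3 *Prlr* was at 9.66 against 11.5 in the theca gate, and *Parm1* at 0.944 against 1.61 in the granulosa gate. *Sfrp4* in set 3 was also at 12.9 in the theca gate and 6.13 in the granulosa gate. Whether cells of the interstitial gate were luteal was not tested. In this gate *Ptgfr* was at 2.80, 4.52 and 0.722 UMIs per 10000 in sets 1, 2 and 3, and *Sfrp4* at 8.21, 18.9 and 16.1. In set 3, 35.4% of the cells of the interstitial gate lay in a cluster led by *Npy*, *Lyve1* and *Comp* of which 86.0% belonged to the granulosa gate. *Cyp17a1* in the theca gate was lower in that set than in the others. Of the theca and interstitial cells, 434 lay within 2-fold of the cut, 235, 51 and 148 of them in sets 1, 2 and 3.

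*Lhcgr* was found as 35452 UMIs in 6032 cells, 19.0% of all cells. In barcode set 1 the theca gate had 10.3 *Lhcgr* UMIs per 10000 (95% interval 10.1 to 10.4), the interstitial gate 7.26 (7.10 to 7.42) and the granulosa gate 1.21 (1.18 to 1.25). In set 2 the interstitial gate stood at 7.35 (7.07 to 7.64), the theca gate at 6.87 (6.64 to 7.11) and the granulosa gate at 0.736 (0.707 to 0.766). In set 3 the theca gate stood at 1.88 (1.74 to 2.02), the interstitial gate at 0.948 (0.874 to 1.03) and the granulosa gate at 0.230 (0.215 to 0.247). Both steroidogenic gates were thus above the granulosa gate in all 3 sets, and under this rule the theca gate was the highest in sets 1 and 3. Over the alternative runs given in the last section, the levels of set 2 ranged from 4.21 to 9.66 in the interstitial gate and from 0.408 to 0.958 in the granulosa gate. Those of set 3 ranged from 0.605 to 2.75 in the interstitial gate, from 1.23 to 2.42 in the theca gate and from 0.0256 to 0.372 in the granulosa gate.

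The theca level was 8.45 times the granulosa level in set 1 (8.14 to 8.77), 9.33 times in set 2 (8.86 to 9.84) and 8.15 times in set 3 (7.35 to 9.03). The interstitial level was 0.708 of the theca level in set 1 (0.687 to 0.728), 1.07 in set 2 (1.02 to 1.13) and 0.505 in set 3 (0.452 to 0.564). Part of the interstitial gate lay in clusters in which the theca gate was the most frequent. In set 1 such clusters held 184 and 179 of its 758 cells. They held 29 of 244 in set 2 and 263 of 822 in set 3. The interstitial to theca ratio thus partly compares cells of the same clusters, divided at the *Cyp17a1* cut. The ratio of set 1 stayed below 1 in each alternative run. In set 2 the theca gate was the higher under 5 alternatives, with ratios from 0.669 without the deepest 8% of cells to 0.896 with whole clusters gated, and in set 3 whole clusters gave 2.24. In set 2 the theca to granulosa ratio was 16.6 when cells were gated by their higher class score alone. In set 3 the theca to granulosa ratio was 73.0 when cells were gated by their higher class score alone, since many cells with both GC and steroidogenic markers then left the granulosa gate, and 5.05 when whole clusters were gated. The theca and interstitial gates together made up few of the cells but most of the transcripts in set 1, where the theca gate, 8.13% of the cells, held 47.1% of the *Lhcgr* UMIs and the interstitial gate, 7.30% of the cells, held 31.4%. The granulosa gate, 39.5% of the cells of set 1, held 15.2%. In set 3 the granulosa gate, 39.0% of the cells, held 36.8% of the *Lhcgr* UMIs. The theca gate, 2.71% of the cells of that set, held 30.5%, and the interstitial gate, 7.16% of the cells, held 27.3%.

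The endothelial and myeloid gates served as the background, since these cells should lack the receptor. The endothelial gate stood at 0.284 (0.233 to 0.344), 0.0991 (0.0728 to 0.132) and 0.0148 (0.00403 to 0.0379) *Lhcgr* UMIs per 10000 in sets 1, 2 and 3, on 105, 47 and 4 UMIs. The myeloid gate stood at 0.167, 0.0897 and 0.0462 on 9, 6 and 3 UMIs. The granulosa level was 4.27 times the endothelial level in set 1 (3.52 to 5.23), 7.43 times in set 2 (5.57 to 10.1) and 15.6 times in set 3 (6.06 to 57.3). Ratios to the myeloid gate were not computed. That gate was below the endothelial gate in sets 1 and 2 and above it in set 3, so the order of the sets depends on the background chosen. With cells gated by the higher class score alone, the granulosa level of set 3 was 0.0256, inside the endothelial interval. The stroma gate, the second largest of the gates, was 1.43 times the endothelial level in set 1 (1.17 to 1.77), 1.18 times in set 2 (0.859 to 1.65) and 1.43 times in set 3 (0.533 to 5.43), so most of its signal was of the size of the background. The remaining UMIs lay in cells that no gate took (820 in 2504 cells, with levels of 1.30, 0.315 and 0.0794 in sets 1, 2 and 3), in the smooth muscle and pericyte gate (31) and in the epithelial, lymphoid, oocyte and erythroid gates (36 in 130 cells). In set 1, 11.9% of the ungated cells held *Lhcgr* after thinning.

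**Figure D1:**
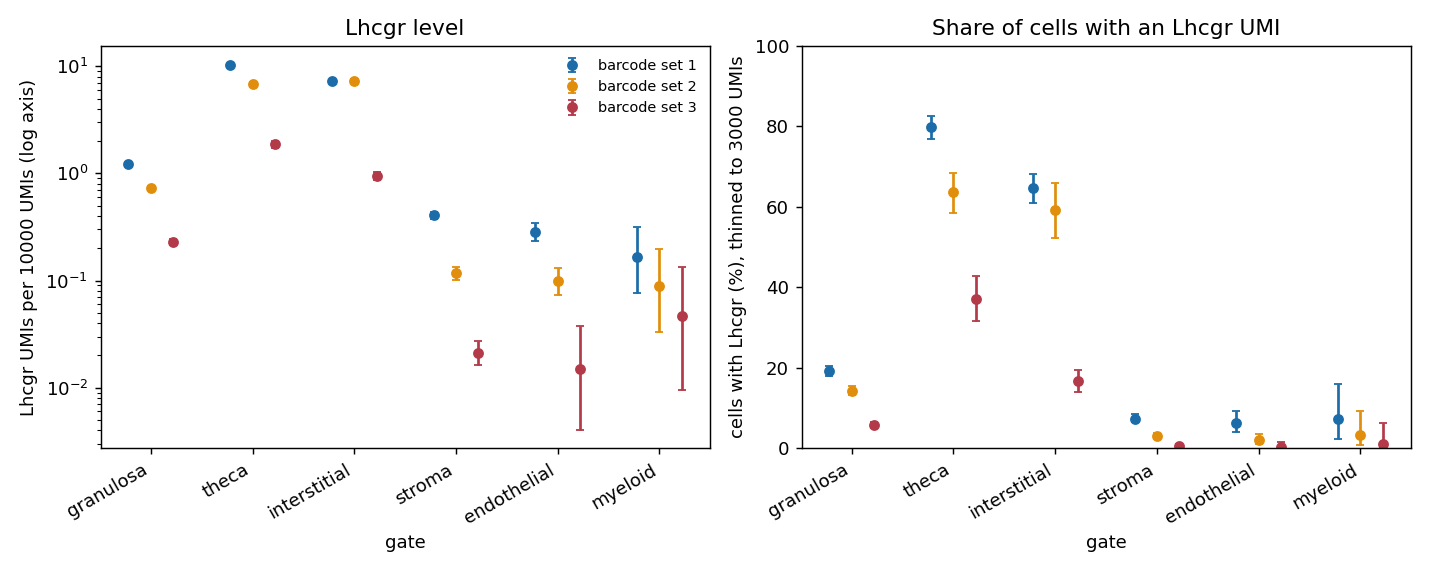
*Lhcgr* by gate in barcode sets 1 (blue), 2 (orange) and 3 (red): UMIs per 10000 UMIs on a log axis at left, and percent of cells with at least 1 *Lhcgr* UMI after thinning to 3000 UMIs at right. Points are values over all cells of a gate and bars are exact 95% intervals for counting error; the theca and interstitial gates lie above the granulosa gate in every set, and set 3 is the lowest in each gate.

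*Lhcgr* was lowest in barcode set 3 in all 3 gates. The granulosa level in set 1 was 5.27 times that in set 3 (4.88 to 5.69), the theca level 5.46 times (5.06 to 5.91) and the interstitial level 7.66 times (7.05 to 8.33). The granulosa ratio was 42.9 when cells were gated by the higher score alone and 4.31 after the endothelial level of each set had been subtracted, and the interstitial ratio was 2.75 with whole clusters gated and 11.8 with the higher score alone. Between sets 1 and 2 the difference was smaller, at 1.65 times in the granulosa gate (1.57 to 1.74) and 1.49 times in the theca gate (1.44 to 1.55), while the interstitial gate showed a ratio of 0.988 (0.944 to 1.03). The granulosa ratio was 2.69 with the higher score alone, and the interstitial ratio became 1.57 without the 8% of cells of highest UMI total in each set. The endothelial level was itself 19.2 times higher in set 1 than in set 3 (7.29 to 71.8).

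Read against all genes, only the difference to set 3 stood far out. In the granulosa gate the log2 difference of *Lhcgr* from set 1 to set 2 was -0.72, where the median of 8764 genes was -0.43 and 28.5% of them were at least as much lower. From set 1 to set 3 it was -2.40 against a median of -0.09, and 97 of 8982 genes, or 1.08%, were at least as much lower. In the theca gate the log2 difference from set 1 to set 3 was -2.45, reached by 1.49% of 8511 genes, and in the interstitial gate it was -2.93, reached by 0.581% of 8782 genes. The granulosa and interstitial gates held different cells in these sets. In the granulosa gate 133 of 4098 cells of set 1 and 2483 of 4473 of set 3 had the higher steroidogenic score. *Lhcgr* in those cells was at 3.54 in set 1 and 0.402 in set 3, and in the other cells of the gate at 1.15 and 0.0381. The ranks of these divisions among genes were not computed. The cluster of highest *Ptgfr* made up 46.7% of the interstitial gate in set 1 and 7.54% in set 3, where the *Npy* and *Lyve1* cluster made up 35.4%. With whole clusters gated the interstitial ratio of set 1 to set 3 was 2.75, and its rank among genes was not computed.

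The share of cells with an *Lhcgr* UMI was highest in the theca gate and lowest in set 3. After thinning to 3000 UMIs it was 79.9% in the theca gate of set 1 (77.0 to 82.5), 63.6% in set 2 (58.5 to 68.4) and 37.1% in set 3 (31.7 to 42.8). In the interstitial gate it was 64.6% (61.0 to 68.1), 59.2% (52.2 to 65.8) and 16.6% (14.0 to 19.5), and in the granulosa gate 19.2% (18.0 to 20.5), 14.3% (13.2 to 15.4) and 5.82% (5.13 to 6.57). The endothelial gate gave 6.33%, 2.03% and 0.297%. Thinning left out 704 of the granulosa cells (256, 219 and 229 in sets 1, 2 and 3), 34 of the theca cells and 141 of the interstitial cells. Unthinned, the shares were 29.1%, 23.7% and 12.1% in the granulosa gate, at median depths of 6009, 6737 and 6774 UMIs. They were 89.7%, 75.2% and 66.9% in the theca gate and 78.5%, 64.3% and 31.8% in the interstitial gate. The endothelial gate gave 12.0%, 5.83% and 0.885% unthinned, at 5174, 5220 and 4795 UMIs. Thinned to 5000 UMIs, the shares of set 3 were 27.5% in the interstitial gate and 8.73% in the granulosa gate.

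Within the positive cells, the number of *Lhcgr* UMIs separated the gates as well. In set 1, 91.9% of the 757 positive theca cells held 3 or more *Lhcgr* UMIs and 1 cell held 107, against 36.4% of the 1192 positive granulosa cells with a highest count of 35. In set 3, 48.6% of the 208 positive theca cells and 11.7% of the 539 positive granulosa cells held 3 or more, and 70.3% of those granulosa cells held a single UMI. Set 3 thus had fewer positive cells and fewer UMIs in each. Positive granulosa cells were somewhat deeper than negative ones, at a median of 6642 against 5717 UMIs in set 1. These counts are unthinned, and positive theca cells were deeper than positive granulosa cells. Their medians were 12557 against 6642 UMIs in set 1 and 11852 against 7490 in set 3, and how much depth added to the gap was not tested.

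**Figure D2:**
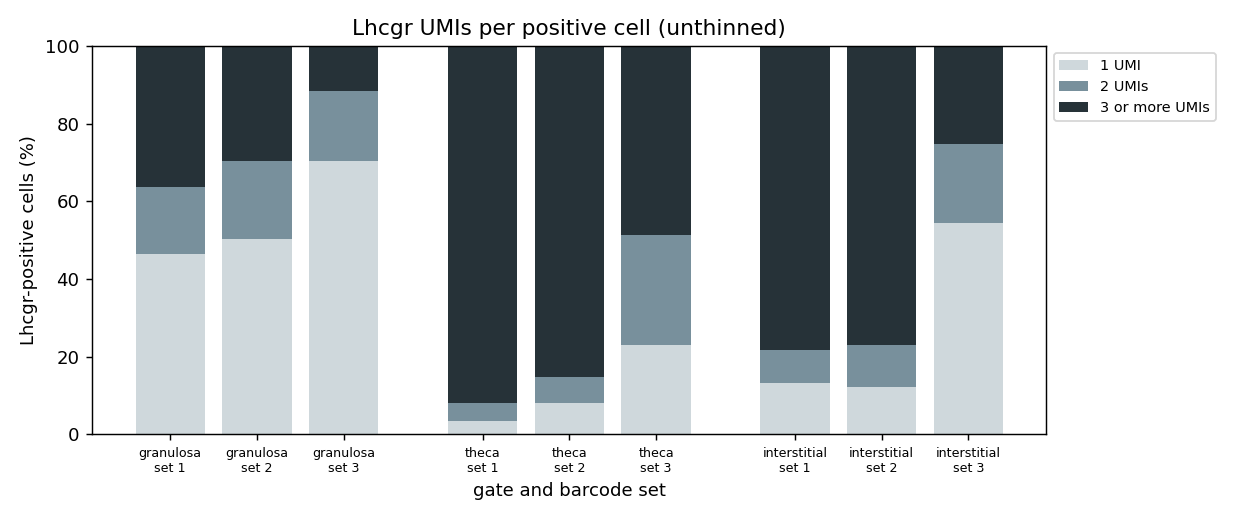
Percent of unthinned *Lhcgr*-positive cells with 1, 2 or 3 or more *Lhcgr* UMIs (vertical axis) in the granulosa, theca and interstitial gates of each barcode set. Cells with 3 or more UMIs made up 91.9% of positive theca cells in set 1 and 48.6% in set 3, and 36.4% and 11.7% of positive granulosa cells. Depth was not made equal: in set 1 positive theca cells had a median of 12557 UMIs and positive granulosa cells 6642.

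Clusters, built in each barcode set without *Lhcgr*, showed how uneven the granulosa gate was. In set 1 a cluster of 1080 cells led by *Comp*, *Tnfsf11* and *Inhba* stood at 3.63 *Lhcgr* UMIs per 10000 (3.49 to 3.77); its cells in the granulosa gate, 26.3% of the gate, held 66.1% of the gate's *Lhcgr* UMIs. In set 2 the cluster led by *Comp*, *Tnfsf11* and *Npy*, with 20.2% of the gate, stood at 2.64 (2.51 to 2.78) and held 60.9%. In set 3 the cluster led by *Npy*, *Lyve1* and *Rnf180*, with 42.7% of the gate, stood at 0.470 (0.437 to 0.506) and held 69.7%. *Inhba*, the activin and inhibin beta A subunit, is known from GCs of antral follicles, and *Npy* and *Lyve1* had no place in the marker lists.

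Other GC clusters were lower. In set 3 the cluster led by the mitotic genes *Prc1*, *Ube2c* and *Ccnb1* stood at 0.274 (0.237 to 0.315) and held 21.9% of the *Lhcgr* UMIs of the gate. The set 1 cluster led by *Inhbb*, *Nap1l5* and *Grem1*, the last an antagonist of BMPs known from cumulus cells, stood at 0.579 (0.50 to 0.667), and the cluster of set 3 led by *Ptx3*, a component of the expanding cumulus matrix, at 0.0841 (0.0481 to 0.137) on 16 UMIs, of which its 187 cells in the granulosa gate held 7, a level of 0.0380. A cluster of set 1 led by *Inhbb* and the mitotic genes *Pbk*, *Ube2c* and *Top2a* stood at 1.18 (1.09 to 1.29). The clusters with *Wfdc10*, *Kctd14* and *Gatm* among their leading genes, where *Kctd14* and *Gatm* are markers of GCs of preantral follicles, stood at 0.248 in set 1, 0.0725 in set 2 and 0.00555 in set 3, none of them above the endothelial gate. In all, the interval lay above that of the endothelial gate in 3 of 8 clusters in which the granulosa gate was the most frequent gate in set 1, 5 of 9 in set 2 and 4 of 7 in set 3. In 1 of these clusters of set 2 and 1 of set 3, both above the endothelial interval, the granulosa gate held only 37.0% and 34.6% of the cells, and the *Ptx3* cluster of set 3 is counted by its cells outside the gate. The intervals of that 34.6% cluster and of the *Ptx3* cluster overlapped that of the myeloid gate of set 3, which reached 0.135.

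Among steroidogenic clusters, set 1 had 8.94 *Lhcgr* UMIs per 10000 (8.76 to 9.12) in the cluster led by *Cyp17a1*, *Gsta2* and *Insl3* and 9.21 (8.96 to 9.47) in the one led by *Mgat4c*, *Adh1* and *Tbx3*. The cluster of highest *Ptgfr*, a luteal marker, stood at 7.56 (7.35 to 7.76), 7.05 (6.76 to 7.35) and 2.75 (2.39 to 3.14) in sets 1, 2 and 3, the last on 65 cells. In set 3 it was above the cluster led by *Cyp17a1*, *Ly6d* and *Akr1b7*, at 1.23 (1.15 to 1.31), whereas in sets 1 and 2 the clusters led by *Cyp17a1* were the higher. Without these *Ptgfr* clusters the interstitial level was 6.45, 5.66 and 0.697 in sets 1, 2 and 3. *Lhcgr* was also above the endothelial interval in 4 of the 15 clusters in which the stroma gate was the most frequent. A cell-cycle cluster of set 1 led by *Pclaf* and *Prc1* stood at 1.70 (1.56 to 1.85), and a cluster of set 2 led by *Il11*, *Enpep* and *Adamts4* at 1.78 (1.64 to 1.92). Cell-cycle clusters led by *Pclaf* and *Aurkb* in set 2 and by *Ccna2* and *Birc5* in set 3 stood at 0.196 (0.133 to 0.278) and 0.0976 (0.0649 to 0.141). The intervals of these cell-cycle clusters of sets 2 and 3 overlapped those of the myeloid gate, which reached 0.195 and 0.135. Cells of other gates carried much of the signal in the other clusters named: in the *Pclaf* and *Prc1* cluster 22 theca-gate cells held 254 of 544 *Lhcgr* UMIs, and in the *Il11* cluster 82 theca-gate cells held 304 and 33 interstitial-gate cells 133 of 632. A cluster of 108 cells of set 1 led by the macrophage genes *Lyz2*, *Fcer1g* and *C1qa* held 58 *Lhcgr* UMIs, whereas the 94 cells of that set in the myeloid gate held 9.

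**Figure D3:**
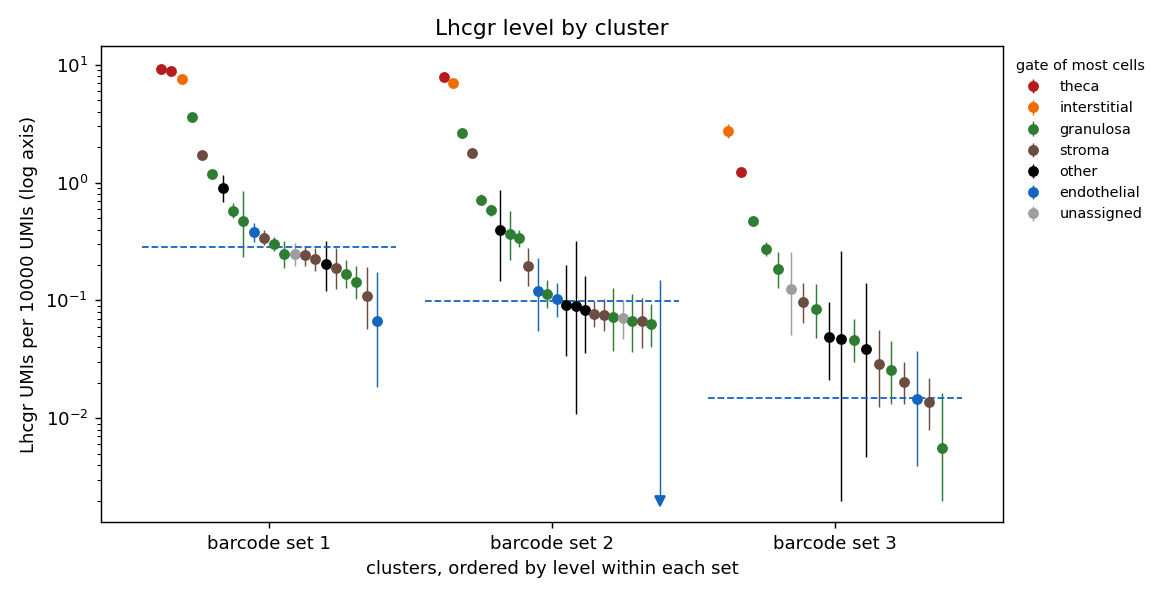
*Lhcgr* UMIs per 10000 UMIs (log axis) in the 64 clusters, ordered by level within barcode sets 1, 2 and 3 and coloured by the most frequent gate of their cells. Bars are exact 95% intervals, cut at 0.002; the triangle marks a cluster with no *Lhcgr* UMI, and dashed lines give the level of the endothelial gate. Theca and interstitial clusters lead each set, 1 or more granulosa clusters follow, and 7 of the 24 granulosa clusters lie at or below the dashed line.

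Over the whole granulosa gate, cells with mitotic genes had the lower *Lhcgr* level. In the granulosa gate, cells with 2 or more of 6 mitotic genes (*Mki67*, *Top2a*, *Cdk1*, *Ccnb1*, *Birc5* and *Ube2c*) stood at 0.843 *Lhcgr* UMIs per 10000 in set 1 (0.790 to 0.898), against 1.54 in cells with none (1.48 to 1.61). Set 2 had 0.528 and 0.840 and set 3 had 0.173 and 0.301, with intervals that did not overlap. The cells with mitotic genes were the deeper, at 9641 against 5278 UMIs in set 1. After thinning, 15.1% of them (12.9 to 17.5) and 21.9% of the others (20.1 to 23.7) held *Lhcgr*. In set 2 the thinned shares were 12.9% (10.6 to 15.4) and 14.8% (13.4 to 16.2), with overlapping intervals. Clusters did not all follow this order. In set 1 the mitotic cluster led by *Inhbb*, *Pbk* and *Ube2c* stood at 1.18, above the 0.579 of that led by *Inhbb*, *Nap1l5* and *Grem1*. Another mitotic cluster of set 1, led by *Top2a* and *Ube2c*, stood at 0.168. In set 3 the *Prc1* and *Ube2c* cluster stood at 0.274, below the 0.470 of the *Npy* and *Lyve1* cluster. Whether the mix of clusters moved the difference was not tested.

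The granulosa gate was also divided by which class score was the higher, since 3297 of its cells, 2483 of them in set 3, scored higher for steroidogenic markers. Those cells stood at 3.54, 2.43 and 0.402 *Lhcgr* UMIs per 10000 in sets 1, 2 and 3, and the cells with the higher granulosa score at 1.15, 0.493 and 0.0381. Both divisions were lowest in set 3, where the cells with the higher steroidogenic score held 758 of the 822 *Lhcgr* UMIs of the gate.

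The partner genes were read in the same cells: *Fshr*, the FSH receptor of GCs, *Cyp19a1*, the aromatase that makes estradiol, and *Star*, which carries cholesterol into mitochondria. *Fshr* in the granulosa gate stood at 1.02, 0.641 and 0.305 UMIs per 10000 in sets 1, 2 and 3. *Cyp19a1* stood at 2.41, 5.25 and 0.0861, and *Star* at 0.0649, 4.18 and 6.88. *Lhcgr* and *Fshr* were thus both lowest in set 3, where *Star* was highest and *Cyp19a1* lowest. All 3 partners share cells, depth and free RNA with *Lhcgr*, and the shares below are after thinning every cell to 3000 UMIs.

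*Cyp19a1* had the largest difference of the 3 partners in set 1. In set 1, 63.2% of the 739 *Lhcgr*-positive granulosa cells held *Cyp19a1* (59.6 to 66.7), against 23.3% of the 3103 negative ones (21.8 to 24.8). In set 2 the shares were 78.3% (74.8 to 81.6) and 52.3% (50.7 to 54.0), a difference that was 14.7 points with the stricter score, and in set 3, where *Cyp19a1* was rare, 6.48% (3.75 to 10.3) and 1.78% (1.39 to 2.24). At 5000 UMIs the shares of set 3 were 5.05% (2.85 to 8.19) and 3.16% (2.57 to 3.83), with overlapping intervals. In sets 1 and 2 the gaps within single clusters were smaller than over the gate. Within the *Comp* and *Tnfsf11* cluster of set 1 the shares were 75.4% (71.2 to 79.2) and 63.9% (59.8 to 67.9), and within that of set 2 they were 85.1% (80.9 to 88.7) and 81.9% (78.3 to 85.1), with overlapping intervals. The intervals did not overlap in the cluster of set 1 led by *Rgs13* and *Ntng1*, at 20.9% (11.9 to 32.6) and 8.66% (6.97 to 10.6), in that led by *Inhbb*, *Pbk* and *Ube2c*, at 68.4% (58.1 to 77.6) and 43.5% (37.9 to 49.2), in that led by *Inhbb*, *Nap1l5* and *Grem1*, at 58.1% (42.1 to 73.0) and 34.8% (29.9 to 40.0), or in the *Npy* and *Lyve1* cluster of set 3, at 5.67% (2.86 to 9.92) and 1.26% (0.781 to 1.92).

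*Fshr* had overlapping shares in *Lhcgr*-positive and *Lhcgr*-negative granulosa cells of set 1, at 24.9% (21.8 to 28.2) and 25.6% (24.1 to 27.2). The difference was -0.722 percentage points (-4.18 to 2.90). In set 2 it was 17.6% and 17.2%, a difference of 0.416 points (-2.83 to 3.94), which was 4.38 points at 5000 UMIs. In set 3 positive cells held *Fshr* more often, at 15.4% (11.1 to 20.5) against 8.18% (7.35 to 9.07), a difference of 7.20 points that was 14.3 at 5000 UMIs and 16.9 unthinned. In set 1 the difference was -4.77 points with the stricter score and 8.83 points unthinned, where the positive cells were the deeper ones. Within the *Comp* and *Tnfsf11* cluster of set 1, *Fshr* was in 26.9% of positive (23.0 to 31.2) and 34.1% of negative cells (30.2 to 38.2), and in the cluster led by *Inhbb*, *Nap1l5* and *Grem1* in 14.0% (5.30 to 27.9) and 33.4% (28.6 to 38.6). In the cluster of set 1 led by *Rgs13* and *Ntng1*, where *Lhcgr* was not above background, *Fshr* was in 28.4% (18.0 to 40.7) and 27.5% (24.7 to 30.5). In set 3 the intervals overlapped in both clusters compared, at 17% (12.0 to 23.1) and 12.4% (10.9 to 14.1) in the *Npy* and *Lyve1* cluster and at 6.25% (0.766 to 20.8) and 9.61% (7.15 to 12.6) in the *Prc1* and *Ube2c* cluster.

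Taken as joint states, *Lhcgr* in the granulosa gate of set 1 was in 42.5% of the 805 cells with *Cyp19a1* alone (39.0 to 46.0) and in 32.4% of the 370 cells with *Cyp19a1* and *Fshr* (27.7 to 37.5). It was in 10.5% of the 601 cells with *Fshr* alone (8.15 to 13.2) and in 10.3% of the 2012 cells with none of the 3 partners (9.0 to 11.7). In set 2 the highest share, 28.3% (25.1 to 31.6), was in the 767 cells with *Cyp19a1* and *Star* but no *Fshr*, and the lowest, 4.66% (3.53 to 6.02), was in the 1180 cells with none.

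*Star* did not track *Lhcgr* in GCs of set 1, where it was in 0.947% of positive (0.382 to 1.94) and 1.51% of negative cells (1.12 to 2.01), as in the endothelial gate at 1.32%. In set 2 it was in 54.3% of positive (50.2 to 58.3) and 32.3% of negative granulosa cells (30.7 to 33.8), and in set 3 in 66.4% (60.1 to 72.3) and 45.4% (43.9 to 47.0), a difference that was 8.89 points with the stricter score. Within the leading clusters of these sets the shares came together, at 68.4% (63.2 to 73.3) and 69.4% (65.3 to 73.3) in set 2 and at 74.7% (68.0 to 80.7) and 80.2% (78.2 to 82.1) in set 3. The endothelial gate held *Star* in 11.8% of cells in set 2 and 11.6% in set 3.

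In the theca gate *Star* stood at 1.10, 30.3 and 35.6 UMIs per 10000 in sets 1, 2 and 3, opposite to *Lhcgr*, and was in 19.5% of the *Lhcgr*-positive (16.6 to 22.7) and 16.1% of the negative cells (10.9 to 22.5) of set 1. At 5000 UMIs these shares were 26.4% (23.2 to 29.9) and 14.8% (8.85 to 22.6), and the intervals did not overlap. In set 2 it was in 98.8% and 95.7% and in set 3 in 95.6% and 94.8%, so nearly every theca cell of those sets held it whether or not *Lhcgr* was seen. In the interstitial gate of set 1 the shares were 27.6% (23.6 to 31.9) and 14.6% (10.5 to 19.5), in set 2 they were 89.7% (83.0 to 94.4) and 60.9% (49.9 to 71.2), or 87.8% (80.9 to 92.9) and 72.3% (59.8 to 82.7) at 5000 UMIs, and in set 3 they were 80.0% (71.9 to 86.6) and 78.5% (75.0 to 81.6), with overlapping intervals. *Fshr* and *Cyp19a1* in the theca gate were near the endothelial level: *Fshr* was in 0.839% of theca and 0.264% of endothelial cells of set 1, and *Cyp19a1* in 5.54% and 5.74% of those of set 2. *Fshr* in the interstitial gate of set 3 was in 7.85% of cells (6.03 to 10.0), above the endothelial 0.297%. That share overlapped the 8.60% of the granulosa gate of set 3 (7.77 to 9.48), and in sets 1 and 2 the interstitial share was 1.67% and 1.88%.

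**Figure D4:**
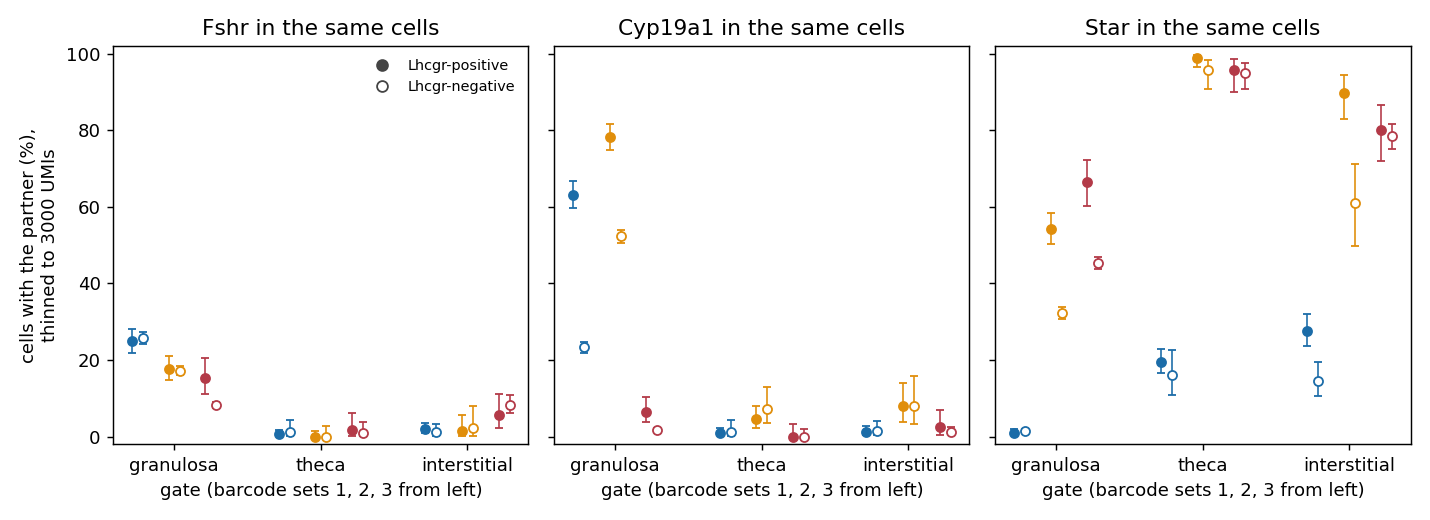
Percent of cells with *Fshr*, *Cyp19a1* or *Star* (vertical axis, after thinning to 3000 UMIs) among *Lhcgr*-positive (filled) and *Lhcgr*-negative (open) cells of the granulosa, theca and interstitial gates, with barcode sets 1, 2 and 3 in blue, orange and red and exact 95% intervals. *Cyp19a1* separates positive from negative granulosa cells, 63.2% against 23.3% in set 1, while the intervals of *Fshr* overlap in sets 1 and 2 at this depth.

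Across the clusters of each set, the genes whose level was most like that of *Lhcgr* included *Cyp11a1*, *Fdx1* and *Cyp51*, which act in steroid and sterol synthesis. Likeness was the lowest of 3 Pearson correlations of log2(level + 0.1), over 22, 24 and 18 clusters, among 7530 genes at 0.1 UMIs per 10000 or more in every set; clusters of a set share a library, and no p is given. *Cyp11a1* came first, with 0.96, 0.98 and 0.95 in sets 1, 2 and 3, and *Fdx1*, the ferredoxin that passes electrons to *Cyp11a1*, second with a lowest value of 0.90. Next among those reported were *Prlr*, the prolactin receptor (0.88), *Ghitm*, a mitochondrial membrane protein (0.86), *Hao2*, a peroxisomal oxidase (0.85), *1810037I17Rik* (0.85), *Cst8*, of the cystatin family (0.85), *Me1*, the malic enzyme (0.82), and *Cyp51*, the sterol demethylase (0.81). *Cyp11a1* and *Fdx1* were among the markers that set the gates. *Star* ranked 26th, with 0.74, 0.93 and 0.82, and *Cyp17a1* 214th, with a lowest value of 0.44. *Fshr* had -0.03, 0.13 and 0.19, and *Cyp19a1*, below the minimum level in set 3, had 0.22, 0.28 and 0.04.

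The pathway around the receptor was described in the granulosa gate by the genes at 0.1 UMIs per 10000 or more in either set and past 2-fold. Over all genes, set 2 against set 1 had 5.4% higher and 14.5% lower by 2-fold or more (7.17% and 6.95% with a minimum level of 0.5), set 3 against set 1 had 7.44% and 9.83%, and set 3 against set 2 had 17.1% and 7.17%. *Lhcgr* itself was past 2-fold lower in set 3 against both other sets and not in set 2 against set 1.

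Of the 7 other members of the receptor family, 2 reached the minimum level: *Fshr*, with log2 differences of -0.67 in set 2 and -1.74 in set 3 against set 1, and *Lgr4*, an R-spondin receptor, with -0.46 and 0.06. None of the 6 G protein subunits was past 2-fold against set 1, with *Gnas*, the Gs subunit, at 0.18 and 0.37. Of 10 adenylyl cyclases only *Adcy9* was measured at that level, at -1.11 in set 2 and -1.15 in set 3. Of 5 PKA subunits, none was past 2-fold in set 2, where *Prkar1a* had the highest value (0.74) and *Prkacb* the lowest (-0.63). In set 3 *Prkar2b*, a regulatory subunit known to be FSH-responsive in GCs, was at -2.59 (25.0, 18.9 and 4.15 UMIs per 10000 in sets 1, 2 and 3) and the catalytic subunit *Prkaca* at 1.01.

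Phosphodiesterases, which break down cAMP, had 2 of 5 measured members past 2-fold higher in set 2: *Pde4d*, from 0.0104 to 0.431 UMIs per 10000, and *Pde4b*, from 0.0209 to 0.217. In set 3 against set 1, *Pde7b* was 1 of 3 lower, at -2.71 on the log2 scale. Of 6 measured genes of receptor desensitization, *Rgs2*, a regulator of G protein signaling, and *Arf6*, a small GTPase of receptor uptake, were higher in set 2 (2.46 and 2.11) and in set 3 (1.29 and 1.62), while the arrestin *Arrb2* and the kinase *Grk6* were at -0.71 and -0.90 in set 2 and at 0.24 and 0.29 in set 3. *Mvk*, whose product binds *Lhcgr* mRNA, was at 0.213, 0.216 and 0.403 UMIs per 10000 in sets 1, 2 and 3, a log2 difference of 0.92 in set 3 against set 1 that did not reach 2-fold; the value was 1.03 in the theca gate and 0.74 in the interstitial gate.

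Of 5 measured cAMP-responsive factors, *Crem*, whose short forms repress cAMP-driven genes, was higher in set 2 by 4.88 on the log2 scale (0.141 to 4.16 UMIs per 10000) and in set 3 by 1.09, and *Creb1* (-1.28) and *Crtc1* (-1.10) were lower in set 2. Of 13 measured factors with reported action on the *Lhcgr* promoter, *Esr2*, the estrogen receptor of GCs, was lower in set 2 (-1.02) and set 3 (-1.56), and *Nr5a2*, an orphan receptor of GCs, was lower in set 3 (-1.84), at 9.34, 9.75 and 2.62 UMIs per 10000. *Sp1* and *Sp3*, the factors of GC boxes, were at -0.31 and -0.24 in set 3 against set 1. The median log2 difference of these 13 factors was -0.57 in set 2 and -0.30 in set 3 against set 1, where the medians of all genes were -0.43 and -0.09.

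Of the 9 steroid synthesis genes, 4 were past 2-fold higher in set 2: *Star* (6.00), *Fdx1* (4.06), *Scarb1*, the HDL receptor (2.22), and *Cyp19a1* (1.13). In set 3 against set 1, 5 were higher, namely *Star* (6.72), *Fdx1* (1.84), *Scarb1* (1.73), *Cyp11a1* (1.14) and *Fdxr* (1.01), and 4 were lower, namely *Cyp19a1* (-4.80), *Cyp17a1* (-3.03), *Hsd17b1* (-2.84) and *Hsd3b1* (-1.40). The median of the 9 genes was 0.40 in set 2 and 1.01 in set 3. *Cyp11a1*, *Hsd3b1*, *Cyp17a1*, *Hsd17b1*, *Scarb1* and *Fdx1* were among the markers that set the gates, so the gate rule bears on their levels and on these counts. *Cyp17a1* in this gate, at 0.559 in set 1, was close to the endothelial 0.493. All 10 genes of the list known to answer LH were higher by 2-fold or more in sets 2 and 3 than in set 1, with medians of 5.44 and 4.0. *Areg* and *Ereg*, EGF-like ligands of the ovulatory cascade, were at 12.6 and 11.8 UMIs per 10000 in set 2 against 0.129 and 0.266 in set 3, and *Runx2* and *Sult1e1*, the latter an estrogen sulfotransferase, were at 0.163 and 1.25 in set 2 against 2.67 and 21.5 in set 3. *Sult1e1* had 1 UMI in set 1.

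Between sets 2 and 3, where the median of all genes was 0.32, *Lhcgr* (-1.67) was lower together with *Fshr* (-1.07), *Prkar2b* (-2.18), *Nr5a2* (-1.90) and 3 of 5 phosphodiesterases, *Pde4d* (-2.92), *Pde7b* (-2.12) and *Pde4b* (-1.55). The steroid synthesis list had 5 of 9 lower in set 3, namely *Cyp19a1* (-5.93), *Cyp17a1* (-2.85), *Hsd17b1* (-2.28), *Fdx1* (-2.22) and *Hsd3b1* (-1.07), and *Fdxr* (1.84) higher. *Rgs2* (-1.18) and *Crem* (-3.79) were lower as well, and 6 of the 10 genes known to answer LH were lower and 2 higher. Higher in set 3 were the receptor kinases *Grk2* (1.01) and *Grk6* (1.19), *Prkaca* (1.11), *Gna11* (1.43), the coactivator *Crtc3* (1.02) and *Dnmt1*, the maintenance DNA methyltransferase (1.46). All these values rest on 1 library per time point, and whether depth, free RNA or the make-up of the gate moved them was not tested.

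**Figure D5:**
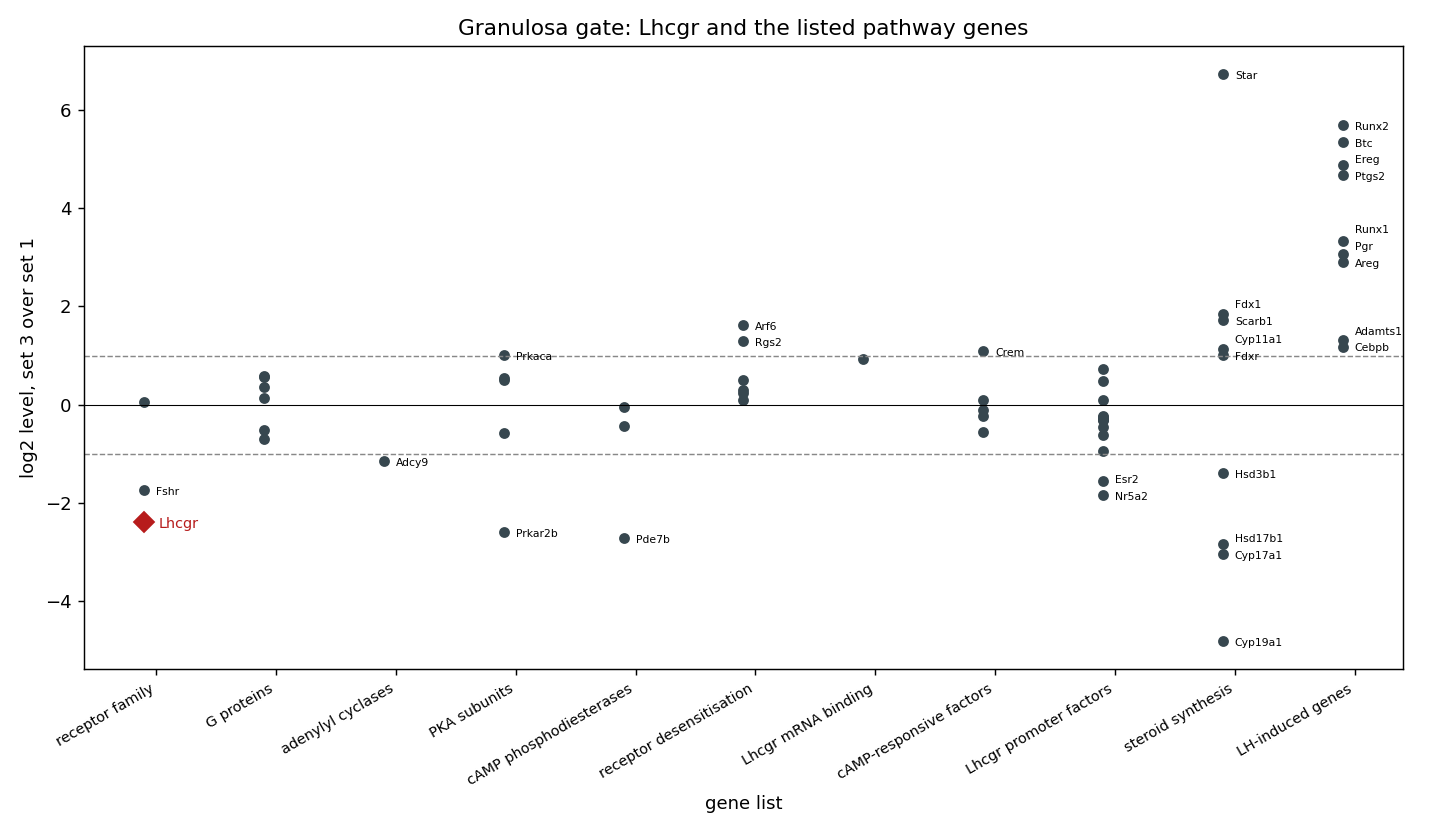
Log2 difference in level between barcode sets 3 and 1 in the granulosa gate (vertical axis; 1 count added to each) for the genes of each list at 0.1 UMIs per 10000 or more in either set; dashed lines mark 2-fold, genes past it are named, and *Sult1e1*, with 1 UMI in set 1, is not drawn. *Lhcgr* (red diamond) is at -2.40, near *Prkar2b* (-2.59) and below *Fshr* (-1.74).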

How the data were processed

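Whole mouse ovaries were profiled by 10x Genomics single-cell RNA-seq, and the authors deposited 1 table of all cells. Each deposited value is on a natural log scale, ln(1 + UMIs per 10000 in that cell); Cell Ranger, Seurat and build mm10 are named in the submitters' processing notes, and their versions and cell filters are not given in the sources used here. UMI counts were worked back as whole numbers (100% of values whole within 0.01), and every cell had at least 500 UMIs. A level is the summed UMIs of a gene per 10000 summed UMIs of the cells, with an exact Poisson interval; shares have exact Clopper-Pearson intervals, ratios exact conditional intervals, and differences of shares Newcombe intervals built on exact bounds (95%). For shares each cell was thinned to 3000 UMIs and shallower cells were left out.

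Gates used marker scores (minimum 0.15, margin 0.05; each marker scaled by its 100 highest cells). The design took the class of highest score; the comparison of *Inha* with *Cyp11a1* was added after the marker distributions had been seen, without viewing *Lhcgr*. Each barcode set was clustered separately (2000 variable genes, 30 principal components, 15 neighbours, Louvain resolution 1). No doublets were removed; an alternative left out the deepest 8% of cells. Between 2 sets, 112 barcodes were shared, and leaving them out changed no ratio beyond its interval. *Lhcgr*, its partners and the gene lists were chosen with earlier results of these data known. Genes named are *Lhcgr* and its 3 partners, the list members past 2-fold or with the extreme differences, and the 10 genes most like *Lhcgr*, of which 1 is not reported here; other members are named for their roles. Functions were tested on simulated data. Intervals were computed with scipy 1.17.1, clusters with python-igraph 0.11.9 on components from scikit-learn 1.9.0, sums with numpy 2.4.6 and plots with matplotlib 3.10.9. The paper's other experiments were not analysed here.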

Additional observations from a re-analysis of the deposited data

How the results depend on the processing

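Ratios of theca to granulosa, of set 1 to sets 2 and 3 in the granulosa and theca gates and of set 1 to 3 in the interstitial gate kept their direction under each alternative run, as did interstitial to theca in set 1. Set 2 to 3 was not run. The interstitial ratio of set 1 to 2 had an interval that held 1. The interstitial to theca ratio turned in set 2, from 1.07 to 0.896 with whole clusters, 0.669 without the deepest 8% of cells, 0.811 with the higher score alone, 0.821 without the *Ptgfr* clusters and 0.891 as a mean over cells, and in set 3, from 0.505 to 2.24 with whole clusters. It was 0.578 with the stricter score, 0.398 without the deepest 8%, 0.324 with the higher score alone, 0.371 without the *Ptgfr* clusters and 0.417 as a mean over cells in set 3. Theca to granulosa in set 2 was 7.18 with the stricter score, 10.6 with whole clusters, 7.78 without the deepest 8%, 16.6 with the higher score alone, 8.01 as a mean over cells and 10.6 after subtracting the endothelial level, and theca between sets 1 and 2 was 1.15 with whole clusters. Gating by the higher class score alone, added after seeing the data and the rule as first written, gave granulosa ratios of 2.69 (set 1 to 2) and 42.9 (set 1 to 3), interstitial ratios of 11.8 (set 1 to 3) and 1.31 (set 1 to 2) and theca to granulosa ratios of 9.35 in set 1 and 73.0 in set 3. With it the granulosa gate of set 3 held 1647 cells instead of 4473 and stood at 0.0256 UMIs per 10000. Whole clusters gated by majority gave 4.82, 7.35 and 2.75 for set 1 to 3 in the granulosa, theca and interstitial gates, 1.07 for the interstitial gate between sets 1 and 2, 7.71 and 5.05 for theca to granulosa in sets 1 and 3, and 0.837 for interstitial to theca in set 1. The stricter score gave 4.39 and 6.85 for set 1 to 3 in the granulosa and interstitial gates, and 6.28 and 5.07 for theca to granulosa. Without the deepest 8% of cells, the granulosa ratio of set 1 to 2 was 1.49, the interstitial ratios 9.15 and 1.57 and theca to granulosa in set 1 7.90. The mean over cells gave granulosa ratios of 1.53 and 4.76, 1.14 for the interstitial gate between sets 1 and 2, theca to granulosa ratios of 7.94 and 7.29, and 0.668 for interstitial to theca in set 1. Subtracting the endothelial level, also added later, gave 1.46 and 4.31 for the granulosa gate and 10.7 for theca to granulosa in set 1. Leaving out the *Ptgfr* clusters, likewise added, gave interstitial ratios of 9.25 and 1.14 and 0.630 for interstitial to theca in set 1. Without the 50 most abundant genes in the totals, theca to granulosa in set 1 was 8.78. Leaving out cells under 2000 UMIs, or shared barcodes, moved no ratio out of its interval. The causes were not tested beyond these constructions.

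In percentage points between *Lhcgr*-positive and *Lhcgr*-negative granulosa cells, *Fshr* gave 8.83 unthinned and -4.77 with the stricter score in set 1, 4.38 at 5000 UMIs and 4.95 unthinned in set 2, and 14.3 and 16.9 in set 3. *Cyp19a1* gave 33.5 and 14.7 with the stricter score in sets 1 and 2, and 1.90 at 5000 UMIs in set 3. *Star* gave 26.8 at 5000 UMIs in set 2, and 28.4 at 5000 UMIs, 27.2 unthinned and 8.89 with the stricter score in set 3. Of the 10 genes most like *Lhcgr*, 8 were also in the first 10 at Louvain resolution 2. With a minimum level of 0.5, 6.95% of genes instead of 14.5% were 2-fold lower in set 2 than in set 1. No paired analysis was possible because each time point has 1 library.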
